A study of Mus musculus with 6 samples.

Results

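The genes described here encode the heterotrimeric G proteins and the proteins that switch their receptors off: the alpha, beta and gamma subunits, the G protein-coupled receptor kinases (GRKs) and the beta-arrestins. They were taken by gene name from the probes of a mouse 2-colour Agilent array. The names gave 40 genes with 81 probes, of 27975 genes with 41174 probes in all. The brightest probe of a gene gave its value. Of the 40 genes, 39 entered the test, among 22846 genes tested.

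Each array set RNA of C57BL/6J splenic CD4 T cells given PMA/ionomycin and VIP against RNA of such cells given PMA/ionomycin alone. PMA is a phorbol ester and ionomycin a calcium ionophore; together they activate T cells without the antigen receptor, and both channels of every array received them. VIP is vasoactive intestinal peptide, a neuropeptide. CD4 cells had been taken with magnetic beads from 5 to 10 spleens pooled per sample, from mice of both sexes aged 6 to 32 weeks, and 250 ng of total RNA was labelled. The labels call the 6 arrays biological replicates; VIP was in Cy5 on replicates 1, 3 and 5 and in Cy3 on replicates 2, 4 and 6. How much VIP was given, and for how long, is not stated in the sources used here.

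A heterotrimeric G protein couples a receptor in the plasma membrane to enzymes inside the cell. An activated receptor makes the alpha subunit exchange GDP for GTP, and the alpha subunit and the beta-gamma dimer then act on their effectors until the GTP is hydrolysed. The VIP receptors VPAC1 and VPAC2 act mainly through Gs, which stimulates adenylyl cyclase and raises cAMP. In T cells Gi carries the chemokine receptor signal for migration, Gq activates phospholipase C beta, and G12 and G13 act on the actin cytoskeleton. GRKs phosphorylate active receptors, and beta-arrestins bind the phosphorylated receptors, uncouple them from the G protein and bring them to internalization.

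The arrays differed in quality. The share of spots well above background in a channel ran from 56.9% to 99.9%. On replicate 6 nearly every spot passed this flag (99.0% for VIP and 99.9% for untreated), so that there it hardly set genes apart. On the other arrays the share was at most 88.5%. Replicate 5 stood apart, with 13.5% of its spots left out for outlier flags against 0.57% to 4.4% on the other arrays, and 10 of the 39 genes have no value there. Its channels also differed in sex-linked transcripts: the log2 ratio of the X-linked Xist was -3.29 and that of the Y-linked Ddx3y 4.08, while on the other arrays both lay between -0.34 and 0.46. The sex of each pool is not stated, and on replicate 5 an effect of VIP and a difference in sex between the channels cannot be told apart. The 3 slides each held 1 array of each dye orientation, at fixed positions, so that dye orientation and position cannot be told apart. VIP was in Cy5 at slide position 2 and in Cy3 at position 4. A dye bias that differed between these positions would enter the VIP effect and cannot be told apart from it. All 12 markers of CD4 T cells were well above background on all 6 arrays in both channels. At an adjusted p under 0.05 in limma, 3 of them were higher with VIP, including Cd28, by 0.28, and Cd2, by 0.22 (log2). The other 9 did not reach that threshold, with Cd4 at 0.041 and Cd5 lowest at -0.075. By sign, 8 of the 12 were higher.

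No change with VIP was called for any of the 39 genes at an adjusted p under 0.05. In limma's fit over all genes, with Benjamini-Hochberg adjustment, 0 were called higher and 0 lower, while 1.59% of all genes tested were called higher and 0.517% lower, 2.11% in either direction. At such a share, 0 of 39 does not set these genes apart from others. At an unadjusted p under 0.05 there were 3 genes, Gng12, Gnai2 and Gnat1, all higher with VIP, against 13% of all genes tested (7.2% higher and 5.76% lower). Without replicate 5 the counts were also 0 higher and 0 lower. The largest log2 ratios of VIP over untreated were 0.14 (Gnat1) and -0.096 (Adrbk2). By sign, 17 genes were higher and 22 lower (43.6% higher, beside 49.7% of all genes tested). Of the 24 well above background on all 6 arrays in both channels, 13 were higher and 11 lower. Among all genes so measured 52.0% were higher. The median log2 ratio of the 39 genes was -0.0045, beside -0.00049 for all genes tested. Their median absolute log2 ratio was 0.042 beside 0.044.

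The precision of these ratios sets how small a change could have been seen. The median standard error (SE) of the log2 ratio was 0.048, the same as the 0.048 of all genes tested. With the processing as reported, the 95% interval lay inside a 1.5-fold change either way for all 39 genes. For 37 it lay inside a 1.2-fold change, the exceptions being Gnb3, with values on 3 arrays, and Gnat1. Over the processing alternatives, the ratios of some probes left their intervals. Among dim probes, Gnat1 reached 0.75, Gnat2 -0.36 and Gna14 -0.28 (log2). Gnb1 and Gna13, well above background on all 6 arrays in both channels, left theirs with median centring. There Gnb1 gave 0.21 and Gna13 0.070, above their upper limits of 0.17 and 0.056. For such probes the intervals do not bound the change. Changes that lie inside a gene's interval are compatible with these arrays. Of the 39 genes, 28 had values on 6 arrays, 10 on 5 and 1 on 3; 24 were well above background on all 6 arrays in both channels. Because whole RNA of many cells was measured, fewer cells that express a gene and less RNA per cell cannot be told apart, and the p-values cover the spread between these 6 arrays only.

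**Figure D1:**
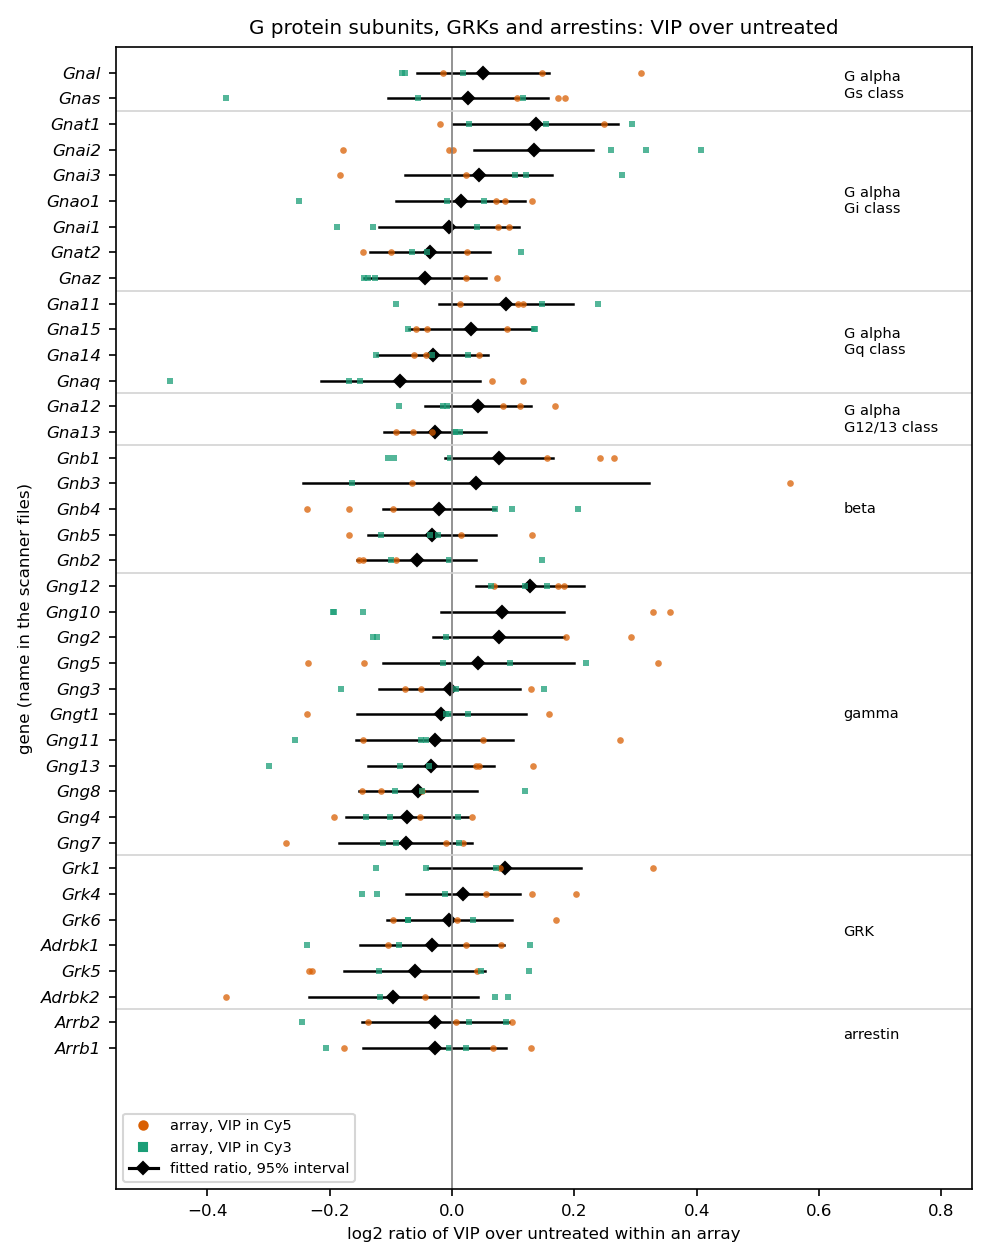
Log2 ratio of VIP over untreated (x axis) for each of the 39 genes tested (y axis), grouped by role. Diamonds and bars are the fitted ratio and its 95% interval, circles are arrays with VIP in Cy5 and squares arrays with VIP in Cy3. Fitted ratios lie between -0.096 and 0.14, and for genes such as Gnai2, Gng10 and Gnb1 circles and squares sit apart.

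The sequences below identify the probes behind the smallest p-values, and a pair of overlapping probes of 1 gene. They give the first 30 bases of both 60-base probes of Gng12 and of the only probe of Gnai2, 5′ to 3′. On mm9 the Gng12 probes lie at chr6:66967776-66967835 and chr6:66970551-66970610 on the plus strand, and the Gnai2 probe at chr9:107517955-107518014 on the minus strand. No exon or UTR annotation of that build was used here. For Gnai1, 2 probes overlap, at chr5:17777649-17777708 and chr5:17777679-17777738 on the minus strand, and the bases in capitals are the 30 that both share.
Gng12, brighter probe: tttctatttgataactatggtatcatattg
Gng12, dimmer probe: cttccaccagcttaccactacggtagaact
Gnai2: cactgacgtcatcatcaagaacaacctgaa
Gnai1, shared by both probes: GAAGGACCTCTTCGAAGAAAAAATAAAAAA

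Gs, the class that VIP receptors use, showed no called change. Gnas encodes the Gs alpha subunit. Its log2 ratios were 0.17, 0.11 and 0.18 on the arrays with VIP in Cy5 and -0.056, 0.12 and -0.37 on those with VIP in Cy3. It was thus higher with VIP on 4 of 6 arrays, and the lowest value, on replicate 6, lay far below the others. The fitted ratio was 0.026 ± 0.059 (SE, n = 6 arrays), with a 95% interval from -0.10 to 0.16 and an adjusted p of 0.92 in limma. Without replicate 6 the ratio was 0.093 (adjusted p = 0.52), and without replicate 4 it was -0.029 (adjusted p = 0.93). Over all its alternatives the adjusted p of Gnas was at least 0.52. Gnal encodes the olfactory relative of Gs alpha. Its ratio was 0.05 ± 0.048 (adjusted p = 0.76), and its 4 tested probes gave ratios from -0.047 to 0.066.

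The Gnas locus produces several transcripts from alternative first exons, and the array held 8 probes for it, of which 5 were tested. The 2 brightest, close to each other at chr2:174167396-174168725 and chr2:174167177-174167338, gave 0.026 and 0.0098. Probes further upstream on the plus strand, at chr2:174158317-174158376 and chr2:174154028-174154087, each gave 0.13 (SE 0.073 and 0.067; adjusted p = 0.53 and 0.48 in limma's fit over probes). The fifth, at chr2:174125482-174125541, gave -0.031. No Gnas probe was called, and the difference between the probes was not tested.

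Among Gi alpha subunits, which inhibit adenylyl cyclase, Gnai2 had the second smallest p of all 39 genes. Gnai2 encodes the main Gi alpha of lymphocytes. Its log2 ratios were -0.0056, 0.0022 and -0.18 with VIP in Cy5 and 0.26, 0.41 and 0.32 with VIP in Cy3. The orientations did not overlap: every Cy3 value was above zero and every Cy5 value at or below about zero. The fit separates a dye effect shared by both orientations, but not one of slide position, from the VIP effect. The dye effect was -0.19 (adjusted p = 0.033 in limma). The VIP effect was 0.13 ± 0.044 (SE, n = 6) with an adjusted p of 0.21. A dye effect was called for 2 of the 39 genes, Gnai2 and Gng10, against 6.61% of all genes tested. On the 3 slides, each with both orientations, the mean ratio of Gnai2 was 0.13, 0.20 and 0.07. Without replicate 5 its ratio was 0.16 and its adjusted p 0.082, the smallest over its alternatives, which reached 1.0.

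Gnai3, which encodes a closely related Gi alpha, had log2 ratios of 0.022 and -0.18 with VIP in Cy5 and 0.10, 0.28 and 0.12 with VIP in Cy3, with no value on replicate 5. It was higher on 4 of 5 arrays and far lower on replicate 3. Fitted over both orientations, the ratio was 0.043 ± 0.053 (adjusted p = 0.82). Gnai1, the third of these genes, gave -0.0044 ± 0.051 (n = 5) at one of the overlapping probes and 0.078 ± 0.044 (n = 6) at the other. A further tested probe gave -0.073 ± 0.061 (n = 5). No Gnai1 probe was called, and the difference between the probes was not tested.

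Gnat1 encodes the alpha subunit of rod transducin. Its ratios (log2) were 0.25 and -0.019 with VIP in Cy5 and 0.15, 0.29 and 0.028 with VIP in Cy3, higher on 4 of 5 arrays, and it passed the background flag on 5 arrays for VIP and 4 for untreated. The fitted ratio was 0.14 ± 0.06 (adjusted p = 0.38). This dim probe depended on the background correction: the ratio was 0.38 with a normexp offset of 0 and 0.75 with Agilent's processed ratios. A further Gnat1 probe gave 0.039 ± 0.055 (n = 6). The other Gi class genes were Gnaz, Gnat2 and Gnao1, with ratios of -0.044, -0.036 and 0.014.

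The Gq class had ratios of both signs, none of them called. Gna11 encodes a Gq family alpha subunit found in most tissues. Its log2 ratios were 0.013, 0.11 and 0.12 with VIP in Cy5 and -0.092, 0.15 and 0.24 with VIP in Cy3. Only replicate 2 was lower with VIP. In the fit the ratio was 0.088 ± 0.05 (adjusted p = 0.52), and a further probe gave 0.074. Gnaq, the namesake of the class, had 0.12 and 0.066 with VIP in Cy5 and -0.15, -0.17 and -0.46 with VIP in Cy3. The orientations did not overlap, and replicate 6 was the lowest. The fitted ratio was -0.084 ± 0.058 (adjusted p = 0.62). Gna15, the Gq family member of blood cells, had a ratio of 0.031 ± 0.046, and Gna14 one of -0.032.

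The alpha subunits of G12 and G13 had the narrowest intervals of the 8 classes. Gna13, the alpha subunit of G13, had log2 ratios of -0.092, -0.063 and -0.033 with VIP in Cy5 and 0.0037, 0.0052 and 0.013 with VIP in Cy3. All 6 values lay close to zero, below it in one orientation and above it in the other. The VIP effect was estimated at -0.028 ± 0.038, with a 95% interval from -0.11 to 0.056 (adjusted p = 0.84). Gna12 had 0.083, 0.11 and 0.17 with VIP in Cy5 and -0.015, -0.0075 and -0.087 with VIP in Cy3, again without overlap of the orientations, and a fitted ratio of 0.042 ± 0.039 (adjusted p = 0.74).

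The beta subunits form the dimer with gamma. Gnb1 had log2 ratios of 0.24, 0.16 and 0.26 with VIP in Cy5 and -0.11, -0.094 and -0.0031 with VIP in Cy3. Every Cy5 value was higher than every Cy3 value. The fitted ratio was 0.077 ± 0.04 (adjusted p = 0.48). Its 4 probes gave ratios from -0.057 to 0.077, of which 3 were higher and 1 lower. Gnb2 had -0.15, -0.091 and -0.15 with VIP in Cy5 and 0.15, -0.0049 and -0.10 with VIP in Cy3, lower on 5 of 6 arrays. Its fitted ratio was -0.058 ± 0.044 (adjusted p = 0.66). Gnb4 gave -0.021 and Gnb5, the partner of the R7 group of RGS proteins, -0.033. Gnb3, the beta subunit of cones, had values on 3 arrays only (0.55, -0.066 and -0.16), which gave 0.04 ± 0.12.

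The gamma subunits, which carry the lipid anchor of the dimer, were the largest class, with 11 genes tested, 4 higher and 7 lower by sign. Gng12 had the smallest p of all 39 genes. Its log2 ratios were 0.17, 0.068 and 0.18 with VIP in Cy5 and 0.12, 0.064 and 0.15 with VIP in Cy3. All 6 values were above zero and both orientations covered the same range. The estimate was 0.13 ± 0.04 (SE, n = 6), a 1.09-fold difference, with a 95% interval from 0.039 to 0.22, an unadjusted p of 0.0095 and an adjusted p of 0.18 in limma. Of the 28 genes with 6 values it was the only one of a single sign on all arrays; of all genes with 6 values 6.04% were, 3.35% being higher on all arrays.

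The dimmer Gng12 probe gave a fitted ratio of 0.13 ± 0.048 (n = 5) from other values. These were 0.27 and 0.41 with VIP in Cy5 and -0.13, -0.034 and -0.075 with VIP in Cy3. The sign at this probe followed the dye orientation, which the brighter probe did not. Each fitted ratio is the average over both orientations.

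**Figure D2:**
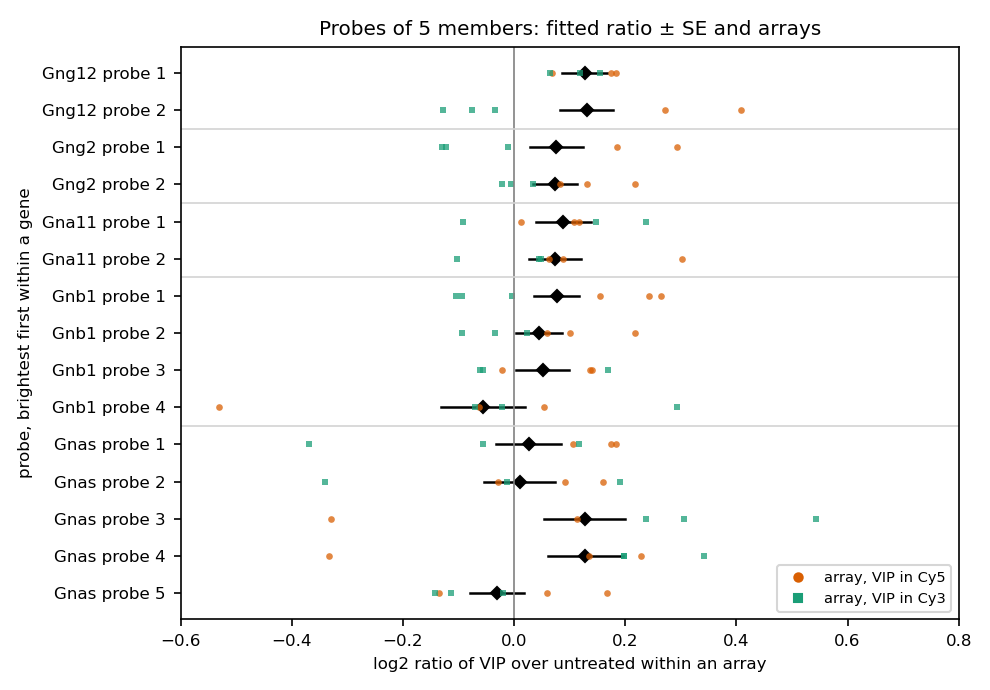
Log2 ratio of VIP over untreated (x axis) at each tested probe of Gng12, Gng2, Gna11, Gnb1 and Gnas (y axis, brightest first). Diamonds and bars are the fitted ratio ± SE, circles arrays with VIP in Cy5 and squares arrays with VIP in Cy3. Both Gng12 probes have a fitted ratio of 0.13, with arrays on 1 side of zero for the brighter and on both sides for the dimmer.

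Gng2, a gamma subunit common in immune cells, had log2 ratios of 0.29 and 0.19 with VIP in Cy5 and -0.12, -0.13 and -0.01 with VIP in Cy3. The orientations did not overlap. The fitted ratio was 0.076 ± 0.048 (n = 5, adjusted p = 0.58), and a further probe gave 0.073. Gng10 showed the strongest dye effect (0.26, adjusted p = 0.016): 0.33 and 0.36 with VIP in Cy5 against -0.19, -0.15 and -0.19 with VIP in Cy3. Its VIP effect was 0.082 ± 0.044 (adjusted p = 0.50).

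Of the gamma genes with a ratio below zero, Gng4 had -0.052, 0.033 and -0.19 with VIP in Cy5 and -0.14, 0.0093 and -0.10 with VIP in Cy3. It was lower on 4 of 6 arrays and gave -0.074 ± 0.045 (adjusted p = 0.56). Gng7 had -0.0097, -0.27 and 0.018 with VIP in Cy5 and -0.091, -0.11 and 0.011 with VIP in Cy3. Replicate 3 was the lowest, and the fitted ratio was -0.076 ± 0.049 (adjusted p = 0.59). A further Gng7 probe had the opposite sign, at 0.027 ± 0.054. Gng8 had -0.049, -0.15 and -0.12 with VIP in Cy5 and -0.049, -0.093 and 0.12 with VIP in Cy3. It was lower on all arrays but replicate 6, at -0.056 ± 0.043 (adjusted p = 0.67). Gng3, Gng5, Gng11, Gng13 and Gngt1 gave ratios from -0.034 to 0.043. Gngt2, the cone gamma subunit, was not tested: it passed the background flag on 0 arrays for VIP and 1 for untreated.

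The kinases that act on receptors were not called in either direction; of 6 tested, 2 were higher and 4 lower by sign. Adrbk1 is the older name of Grk2, the kinase that beta-gamma dimers bring to the membrane. Its ratios (log2) were -0.10, 0.024 and 0.08 with VIP in Cy5 and -0.086, -0.24 and 0.13 with VIP in Cy3. Replicates 1, 2 and 4 lay below zero and the others above, and the fitted ratio was -0.033 ± 0.053 (adjusted p = 0.88). Adrbk2 is the older name of Grk3, a close relative; it had -0.044 and -0.37 with VIP in Cy5 and 0.07, 0.092 and -0.12 with VIP in Cy3. Replicate 3 was far below the others, and the fitted ratio was -0.096 ± 0.061 (adjusted p = 0.59). It was -0.015 without replicate 3 and -0.18 without replicate 1.

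Grk6, a kinase of chemokine receptors in lymphocytes, had log2 ratios of -0.096, 0.0088 and 0.17 with VIP in Cy5 and -0.072, -0.072 and 0.034 with VIP in Cy3. These scattered around zero, and the fitted ratio was -0.0045 ± 0.046 (adjusted p = 0.98). Grk5, which stays at the membrane without beta-gamma, had -0.23, -0.23 and 0.042 with VIP in Cy5 and -0.12, 0.13 and 0.048 with VIP in Cy3. Replicates 1, 2 and 3 were lower and the others higher, and the fitted ratio was -0.061 ± 0.052 (adjusted p = 0.71). Grk1, a kinase of photoreceptors, had 0.33 and 0.078 with VIP in Cy5 and -0.043, -0.12 and 0.072 with VIP in Cy3, for a fitted ratio of 0.086 ± 0.056 (adjusted p = 0.60); it was well above background on 4 arrays in each channel. Grk4 gave 0.018 ± 0.042.

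The beta-arrestins had nearly the same small ratio. Arrb1 had log2 ratios of -0.18, 0.067 and 0.13 with VIP in Cy5 and -0.005, -0.21 and 0.022 with VIP in Cy3. From the fit came a ratio of -0.028 ± 0.052 (adjusted p = 0.90). Arrb2 had -0.14, 0.0068 and 0.098 with VIP in Cy5 and 0.088, -0.25 and 0.028 with VIP in Cy3, and a fitted ratio of -0.027 ± 0.054 (adjusted p = 0.91). Replicates 1 and 4 were the lowest and replicate 5 the highest for both genes.

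Probe by probe the picture was alike. Of the 81 probes 74 were tested, none was called in limma's fit over 33262 probes, 4 had an unadjusted p under 0.05, and the smallest adjusted p was 0.18, for Gng12; 2.13% of all probes were called. Of 22 genes with several tested probes, 10 had all probes of 1 sign and 12 had probes of both signs. No share over all probes is given here for the unadjusted count, nor over all genes for the counts with probes of 1 or both signs. These counts therefore do not show whether the members differ from other genes. Grk6 was lower at all 3 of its probes and Adrbk2 at all 3 of its probes, while Adrbk1 had 2 probes higher and 1 lower.

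**Figure D3:**
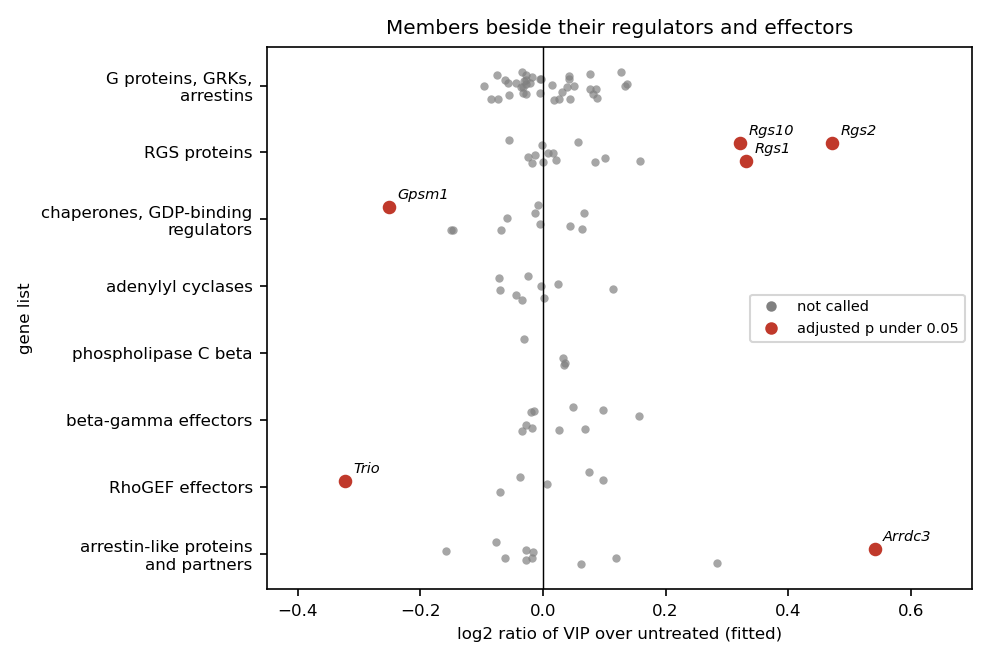
Fitted log2 ratio of VIP over untreated (x axis) for the G proteins, GRKs and arrestins and for 7 lists of their regulators and effectors (y axis); points are genes, and red points have an adjusted p under 0.05. The 39 genes of the top group are all grey and lie between -0.096 and 0.14, while 6 genes of the lists are red. The lists were written with earlier results of these data known.

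The proteins around the G proteins were also examined, as 7 lists of regulators and effectors. These lists were written with earlier results of these data known, so their counts of called genes are not a test against all genes. Of 67 genes tested (73 listed), 4 rose with VIP, 2 fell and 61 were not called, beside 1.59% higher and 0.517% lower among all genes tested. Their median log2 ratio was -0.0034. Among 16 RGS proteins, which speed GTP hydrolysis by alpha subunits, 3 rose. Rgs2, which acts on Gq, had log2 ratios of 0.57, 0.62 and 0.86 with VIP in Cy5 and 0.098, 0.31 and 0.37 with VIP in Cy3. It was higher on every array, and more so in the Cy5 orientation. The fitted ratio was 0.47 ± 0.054 (adjusted p = 0.0017), and a further probe gave 0.49. Rgs1, a regulator of chemokine receptor signals in lymphocytes, rose by 0.33 ± 0.048 (adjusted p = 0.0056) and Rgs10 by 0.32 ± 0.065 (adjusted p = 0.033), both higher on 6 of 6 arrays. Rgs14 (0.086) and Rgs19 (0.10) were not called.

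Of the arrestin-like proteins and arrestin partners, Arrdc3, an alpha-arrestin, rose by 0.54 ± 0.066 (adjusted p = 0.0023). Its log2 ratios were 0.36, 0.27 and 0.30 with VIP in Cy5 and 0.75, 0.49 and 1.07 with VIP in Cy3, all above zero and higher in the Cy3 orientation. Txnip, a further alpha-arrestin that restrains glucose uptake, had 0.28 ± 0.066 (adjusted p = 0.074) and Git2 -0.16; neither was called. Gpsm1, which holds Gi alpha in its GDP form, was the only called gene of 11 chaperones and GDP-binding regulators and fell by 0.25 on the log2 scale (SE 0.05, adjusted p = 0.038), lower on 5 of 5 arrays. Ric8b (-0.15) and Ccdc88c (-0.15) were not called. Trio, a RhoGEF downstream of Gq, fell by 0.32 (SE 0.055, adjusted p = 0.014), lower on 6 of 6 arrays, as the only called gene of 6 RhoGEFs; Arhgef12 gave 0.099 and Arhgef1 0.076.

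None of 9 adenylyl cyclases, the effectors of Gs and Gi, was called; Adcy7, the form typical of blood cells, had the largest ratio, 0.11, and Adcy1 had -0.072. None of 4 phospholipase C beta genes was called (Plcb1 0.035, Plcb3 -0.031). None of 10 beta-gamma effectors was called; Pik3r5, an adaptor of PI3K gamma, had 0.16 (adjusted p = 0.17) and Kcnj3 0.097. Leaving out single arrays kept the calls of Rgs1, Rgs2 and Arrdc3. The call of Rgs10 was lost without replicate 1, 2, 4 or 6 (adjusted p = 0.12, 0.053, 0.13 and 0.14), that of Trio without 1, 2 or 6 (0.060, 0.072 and 0.065) and that of Gpsm1 without 1, 2, 3, 4 or 6 (0.29, 0.13, 0.085, 0.14 and 0.073).

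**Figure D4:**
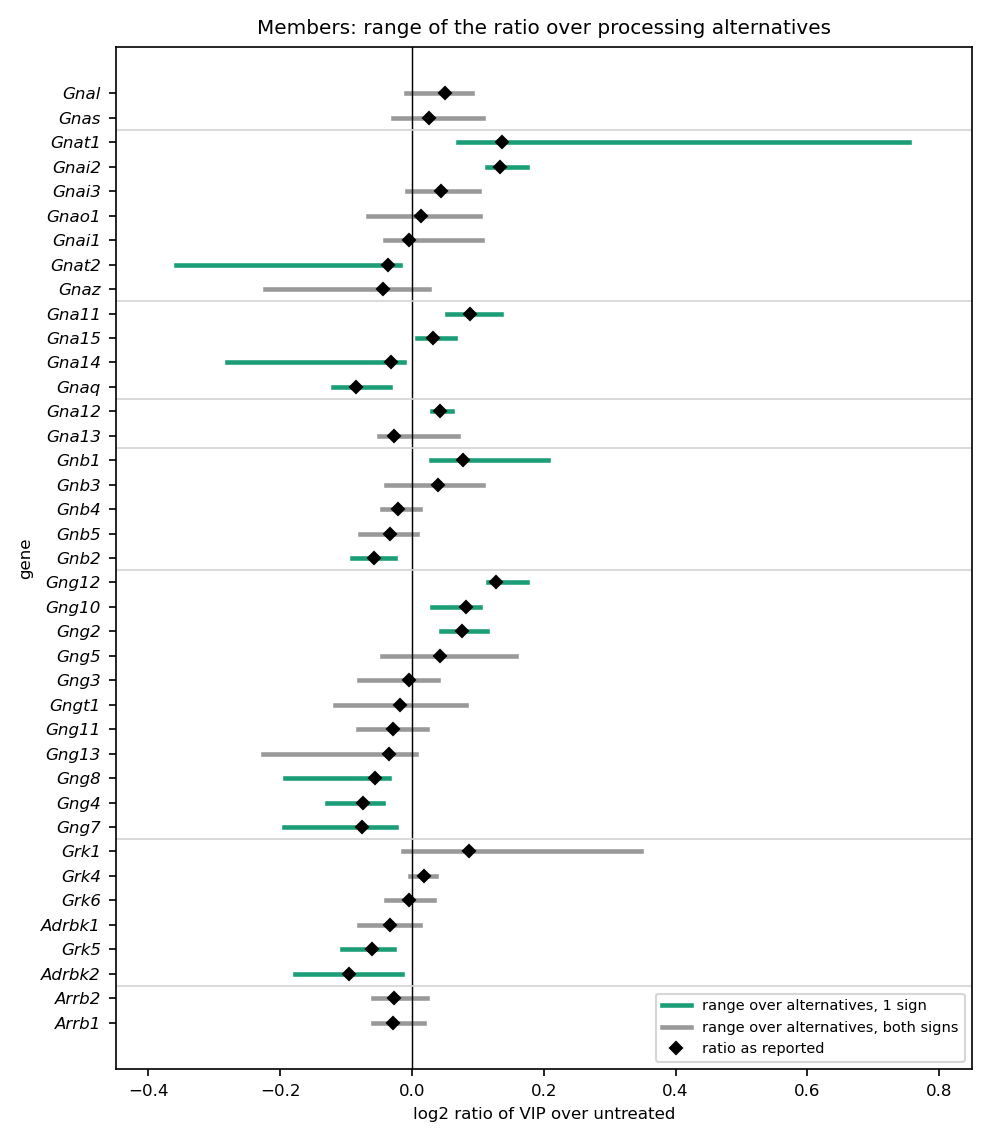
Log2 ratio of VIP over untreated (x axis) of each of the 39 genes (y axis) as reported (diamond) and its range over up to 20 processing alternatives (bar; green where all alternatives share 1 sign). Gng12 stays between 0.12 and 0.17 and Gnai2 between 0.11 and 0.18, while Gnat1, a dim probe, reaches 0.75.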

How the data were processed

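Per the file headers, Agilent Feature Extraction 9.5.1.1 read the scans; the deposited scanner files give spot intensity, local background, 0 or 1 quality flags and a log10 ratio of processed signals, on which the authors' series table is based. Probe positions are on mm9, per the files. Mean intensity was background-corrected (normexp, offset 50) and loess-normalized within arrays, giving control spots no weight, using limma 3.58.1 (R 4.3.3). Flagged spots were left out and spots of a probe averaged. A gene was tested if its brightest probe was well above background on at least 3 arrays in the VIP or the untreated channel. Replicate 6, where nearly every spot passed, was counted. The log2 ratio within each array was fitted by lmFit and eBayes with terms for dye and for VIP; p-values were adjusted by Benjamini-Hochberg over all 22846 genes, with a threshold of 0.05. Apart from picking and ordering the probes of a gene by brightness, levels of different probes were not compared. The fit was tested on simulated data.

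The members and lists were chosen with earlier results of these data known. Genes described array by array were the 16 with the smallest p and a set standing for each role; of the lists, all called genes and at most 2 others each were named. Marker lists of other cells gave these counts of called genes among those tested: B cells 0 of 7, CD8 T cells 0 of 2, NK cells 0 of 4, neutrophils 0 of 3, platelets 0 of 5, erythroid cells 0 of 3, and monocytes 1 of 7 (Cd14, 0.57). Their part in the results was not tested. A few marker results are left out here.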

Additional observations from a re-analysis of the deposited data

How the results depend on the processing

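No G protein, GRK or arrestin gene was called in any of the 20 alternatives. Of the 39 genes, 18 had 1 sign in every alternative that gave a value and 21 had both. Counts over all genes moved: 73 higher and 9 lower with a normexp offset of 0, 19 and 0 with Agilent's ratios, 112 and 8 with median centring, and 161 and 38 without the dye term, against 363 and 118 as reported; array weights gave 214 lower. The called regulators and effectors, 6 as reported, numbered 2, 0, 2 and 3 in the first 4 of these. Rgs2 and Arrdc3 lost their call with Agilent's ratios alone (adjusted p = 0.14 and 0.065), and Rgs1 there, with the offset of 0 and with median centring (0.14, 0.077 and 0.11); none of the 6 called regulators and effectors changed direction. The share of called genes that were higher was 75.5% as reported, 89.0% with the offset of 0, 100% with Agilent's ratios, 93.3% with median centring and 86.2% without replicate 4; it was lowest with array weights (68.9%) and without replicate 5 (69.3%). Leaving out single arrays gave 160 to 569 genes higher (fewest without replicate 1, most without replicate 5), 31 to 252 lower and 3 to 7 called regulators and effectors. The cause of these shifts was not tested. Each array is already the pair of VIP and untreated. With the slide as a further block, over the 18580 genes with values on all arrays, 271 genes were higher, 81 lower and 5 regulators and effectors called; the smallest adjusted p of a G protein, GRK or arrestin gene was 0.27 (Gnai2). Dim probes such as Gnat1 limit what the arrays show.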
